A study of Mus musculus with 8 samples.

Results

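The 35 genes described here encode the enzymes of cholesterol synthesis, the proteins that sense and move sterols, and the enzymes that make and desaturate fatty acids. They were taken by symbol from the deposited gene table through the GENCODE M21 annotation, and 35 of 35 listed symbols were found among the 26589 genes. All 35 passed the filter for testing, which asks for at least 1 FPKM in at least 4 libraries (FPKM correct a read count for exon length and sequencing depth). The lowest value of any of them in a library stood on 99 reads, in Fdps.

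The RNA came from mouse splenic B cells sorted into an IL-10+ and an IL-10- fraction, with 4 libraries of each. Both fractions came from IL-10-eGFP Tiger mice, in which cells that transcribe Il10 also make green fluorescent protein, and both had been cultured for 48 h with lipopolysaccharide at 3 µg/ml. Lipopolysaccharide is a bacterial ligand of Toll-like receptor 4 that drives B cells to divide and to become plasmablasts. The treatment label reads untreated, which stands against the protocols in the labels. The protocols were followed. The sources used here give neither age nor sex of the mice, nor what a replicate number stands for, such as an animal or a culture. The p-values below thus reflect only how far these libraries spread, some of which may be technical.

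Cholesterol is built from acetyl-CoA through mevalonate, isoprenoids, squalene and lanosterol. The transcription factors SREBP, encoded by Srebf1 and Srebf2, turn on most of these genes and those of fatty acid synthesis when sterols in the endoplasmic reticulum are low. Scap escorts SREBP to the Golgi for cleavage, and the Insig proteins hold it back when sterols are high. The LXR receptors, of which Nr1h2 encodes one, respond to oxysterols and turn on the sterol exporters Abca1 and Abcg1. Activated B cells need membrane lipid for growth and, as plasmablasts, for their enlarged endoplasmic reticulum.

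Recovered library totals lay between 27380398 and 29968283 reads. Il10, on which the cells were sorted, stood at 32.0, 44.4, 35.2 and 35.8 FPKM in the IL-10+ libraries of replicate numbers 1 to 4 and at 1.28, 2.86, 3.77 and 4.76 FPKM in the IL-10- libraries. Libraries with the same replicate number resembled each other across genes, in that their deviations from the group means correlated at 0.583 to 0.712. Each gene was therefore tested with limma on log2(FPKM + 1) without the replicate number and also with the number as a block. Genes with a Benjamini-Hochberg adjusted p under 0.05, over all 11329 tested, are named as called. Without the block 19.7% of all tested genes were called, and with it 53.7%. Defining markers of T cells, NK cells, neutrophils, erythroid cells and platelets summed to at most 2.21 FPKM in any library. Those of macrophages and monocytes summed to 6.47 to 10.5 FPKM among IL-10+ and 6.95 to 11.4 FPKM among IL-10- libraries, nearly all from Cd68, and Csf1r was at or near 0. Those of dendritic cells summed to 7.54 to 11.3 FPKM among IL-10+ and 9.56 to 14.9 FPKM among IL-10- libraries, nearly all from Flt3, and Siglech was at or near 0. The B cell receptor subunit Cd79a stood at 676, 601, 562 and 533 FPKM in the IL-10+ libraries of numbers 1 to 4 and at 632, 554, 488 and 452 FPKM in the IL-10- libraries. Its partner Cd79b averaged 315 ± 34.2 FPKM in the IL-10+ and 359 ± 59.3 FPKM in the IL-10- group, and Ms4a1, which encodes the B cell surface protein CD20, 88.1 ± 3.74 FPKM in the IL-10+ and 134 ± 5.15 FPKM in the IL-10- group (SD, n = 4 each). Cd79a was higher and the other pair lower in the IL-10+ library of every number, and without the block only Ms4a1 of these 3 was called (limma adjusted p = 2.13e-04), while with it all 3 were.

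IL-10+ cells held somewhat less of nearly every sterol synthesis transcript than IL-10- cells of the same replicate number. Of the 18 enzymes from acetoacetyl-CoA to cholesterol, 17 had the lower value in the IL-10+ member of every replicate pair, at 0.712 to 0.900 times the IL-10- mean, and 1, Ebp, was higher in all 4. Among all tested genes 40.4% were lower in all 4 numbers and 24.3% were higher in all 4. The sterol exporter Abcg1 and the SREBP retention factor Insig1 ran the other way, at 1.88 and 1.36 times the IL-10- mean. Of the fatty acid enzymes, the abundant desaturase Scd1 was lower in IL-10+ cells at 0.713 times the IL-10- mean, while its neighbour Scd2 was not.

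Without the block, 2 members rose (Abcg1 and Ebp), 1 fell (Scd1) and 32 were not called. The shares of all tested genes were 10.6% higher and 9.18% lower. The median log2 change of the 35 members was -0.17, against -0.06 for all tested genes. With the replicate block 22 members fell and 5 rose, against 33.3% and 20.4% of all tested genes, and 8 were not called. With the block and median-of-ratios scaling 21 fell and 7 rose, against 28.1% and 22.4% of all tested genes, and with a scaling that leaves out immunoglobulin and mitochondrial genes 21 fell and 7 rose, against 27.5% and 22.5%. The blocked counts were 20 to 21 lower and 4 higher when both libraries of any one replicate number were left out. The groups did not overlap in 3 members, against 25.2% of all tested genes. In bulk libraries, fewer cells that express a gene and less of its RNA per cell cannot be told apart.

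**Figure D1:**
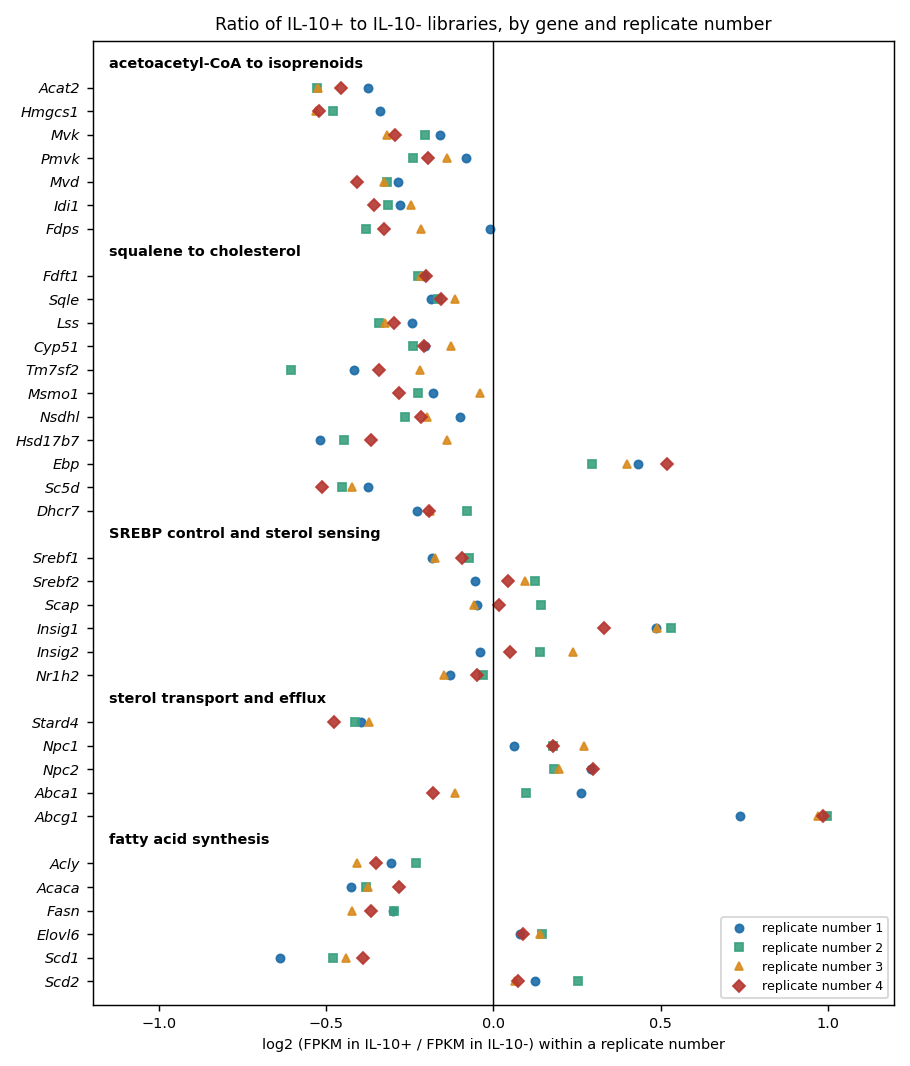
Each point is the log2 ratio of FPKM in the IL-10+ over the IL-10- library of a replicate number, for the 35 members grouped by role. The 17 sterol enzymes other than Ebp are among the 24 members that lie left of 0 in all 4 numbers. Right of it in all 4 lie 7 members, namely Ebp, Insig1, Npc1, Npc2, Abcg1, Elovl6 and Scd2.

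The first stretch of the pathway leads to the isoprenoid farnesyl diphosphate. None of its 7 enzymes was called without the block, and 6 fell with it. Hmgcs1, which makes HMG-CoA, stood at 18.8, 24.7, 37.2 and 44.5 FPKM in the IL-10+ libraries of numbers 1 to 4, against 23.8, 34.5, 53.7 and 63.9 FPKM in the IL-10- libraries. The groups overlapped widely, and the libraries of numbers 3 and 4 were high and those of 1 and 2 low in both fractions. Within the numbers the ratio of IL-10+ to IL-10- was 0.790, 0.716, 0.691 and 0.697 (log2 change -0.46, SE 0.351, limma adjusted p = 0.414, and 4.67e-04 with the block).

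Acat2, the cytosolic thiolase that makes acetoacetyl-CoA, had the same pattern, at 13.0, 18.6, 25.6 and 30.3 FPKM among IL-10+ and 16.8, 26.8, 36.8 and 41.6 FPKM among IL-10- libraries. Its adjusted p was 0.376 without and 3.27e-04 with the block (limma). Mvd, which decarboxylates mevalonate diphosphate, was the most abundant enzyme of this stretch. It stood at 39.4, 40.3, 49.8 and 52.9 FPKM among IL-10+ and 48.0, 50.2, 62.6 and 70.2 FPKM among IL-10- libraries, and each IL-10+ value lay below the IL-10- value of its number (limma adjusted p = 0.161, and 4.92e-04 with the block). The mevalonate kinase Mvk varied least, at 10.6 ± 0.522 FPKM in the IL-10+ and 12.6 ± 1.19 FPKM in the IL-10- group (SD, n = 4 each). It was not called with all libraries (limma adjusted p = 0.0765) and was called without IL-10- replicate 1 (adjusted p = 0.0265) and with the block (0.00433).

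Pmvk, the phosphomevalonate kinase, was at 0.889 times the IL-10- mean, and Idi1, the isopentenyl diphosphate isomerase, averaged 30.4 ± 11.8 FPKM in the IL-10+ and 37.5 ± 14.9 FPKM in the IL-10- group (SD, n = 4 each). Both fell with the block (limma adjusted p = 0.0113 and 7.23e-04), and Pmvk lost that call without replicate number 4 (adjusted p = 0.0502). Fdps, the farnesyl diphosphate synthase, was low for an enzyme of this pathway, at 1.45 ± 0.749 FPKM in the IL-10+ and 1.74 ± 0.991 FPKM in the IL-10- group (SD, n = 4 each). It was called in neither fit (limma adjusted p = 0.762, and 0.111 with the block). The gene shares 26.7% of its exon bases with Gm43738 on the same strand. How reads that fit both genes were counted could not be learnt from the sources used here, and the level of Fdps is therefore uncertain.

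From squalene to cholesterol, 1 of 11 enzymes rose without the block and none fell. With the block 10 fell and 1 rose. Cyp51, the lanosterol demethylase and the most abundant of the 11, stood at 38.4, 48.4, 60.7 and 67.3 FPKM among IL-10+ and 44.3, 57.2, 66.2 and 77.7 FPKM among IL-10- libraries. The ratio within the numbers was 0.867, 0.846, 0.916 and 0.866, a smaller difference than the spread between the numbers (limma adjusted p = 0.576, and 0.00310 with the block). Sqle, the squalene epoxidase and a control point of the pathway, differed by less, at 32.8 ± 8.94 FPKM in the IL-10+ and 36.4 ± 9.51 FPKM in the IL-10- group (SD, n = 4 each; 0.900 times the IL-10- mean, adjusted p = 0.00480 with limma and the block).

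Sc5d, the sterol desaturase of the late pathway, was lowest relative to IL-10- cells among these 11. It stood at 11.9, 11.7, 16.2 and 18.5 FPKM in IL-10+ libraries and at 15.4, 16.1, 21.8 and 26.4 FPKM in IL-10- libraries. The ratio was 0.771, 0.730, 0.746 and 0.701 in numbers 1 to 4 (limma adjusted p = 0.194, and 3.24e-04 with the block). The others that fell with the block were Fdft1 (squalene synthase), Lss (lanosterol synthase), Tm7sf2 (a sterol reductase), Msmo1 (a methylsterol oxidase), Nsdhl and Hsd17b7 (which remove methyl groups from the ring with it) and Dhcr7 (which makes cholesterol from dehydrocholesterol). Their group means ranged from 3.22 FPKM in IL-10+ cells, in Tm7sf2, to 20.5 FPKM in IL-10- cells, in Fdft1. Fdft1 shares 18.3% of its exon bases with Ctsb on the opposite strand, and the sources used here do not give the strand setting of the counting. Hmgcs1 shares 12.1% with Gm48342 and Scap 13.2% with 5830462I19Rik, also on the opposite strand. Tm7sf2 shares 12.1% with Vps51 on the same strand, so its low level is uncertain like that of Fdps. Other members had smaller overlaps. Msmo1 lost its blocked call when replicate number 1, 2 or 4 was left out (limma adjusted p = 0.0555, 0.0770 and 0.0759).

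Ebp went against the rest of its pathway. The gene encodes the sterol isomerase that acts just before Sc5d and lies on chromosome X at 8185329 to 8193512 of GRCm38. Ebp stood at 18.6, 21.6, 23.4 and 23.5 FPKM in the IL-10+ libraries of numbers 1 to 4, against 13.8, 17.6, 17.8 and 16.4 FPKM in the IL-10- libraries. The lowest IL-10+ value lay above the highest IL-10- value, so the groups did not overlap. Ebp averaged 21.8 ± 2.28 FPKM in the IL-10+ and 16.4 ± 1.83 FPKM in the IL-10- group (SD, n = 4 each), 1.33 times the IL-10- mean (log2 change 0.39, SE 0.104, limma adjusted p = 0.0301, and 8.07e-04 with the block). The unblocked call ended without IL-10+ replicate 2, 3 or 4 (adjusted p = 0.0728, 0.0874 and 0.0780) and without IL-10- replicate 1 or 4 (0.0519 and 0.0652). It also ended without a filter on low values (0.0604) and within replicates 1 and 2 alone (0.234). The ratio of Ebp to Sc5d in FPKM, a comparison chosen after the values were seen, was 1.57, 1.84, 1.44 and 1.27 in IL-10+ and 0.895, 1.10, 0.816 and 0.621 in IL-10- libraries. It was above 1 in the 4 IL-10+ libraries and in 1 of the 4 IL-10- libraries.

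**Figure D2:**
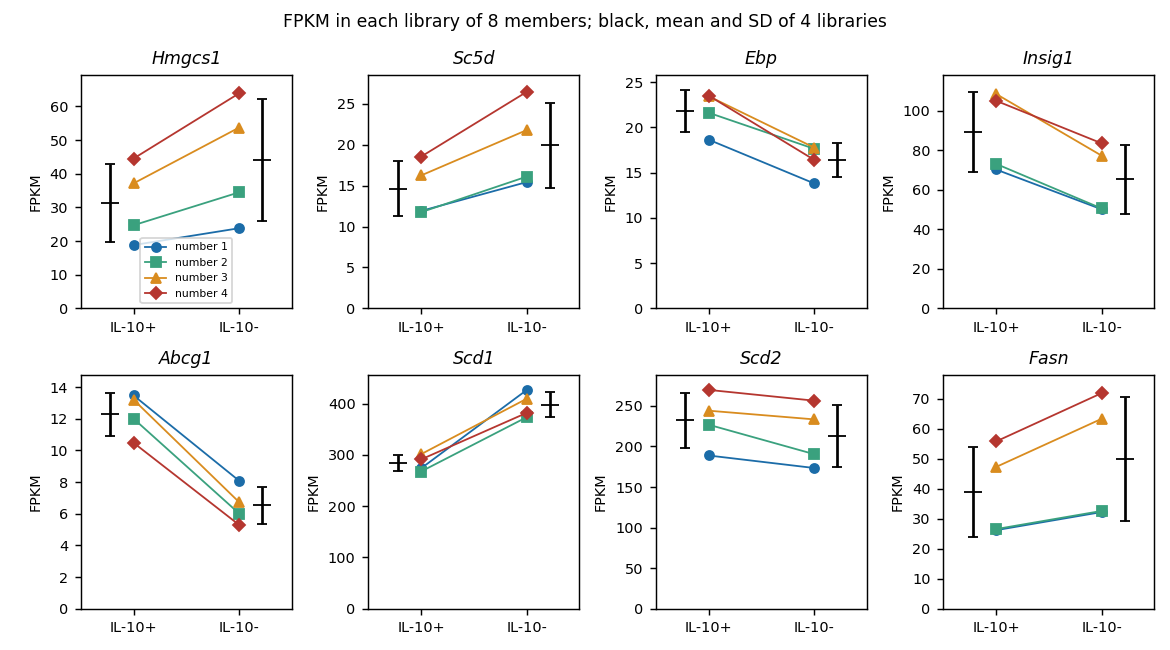
FPKM in each library for 8 members, IL-10+ on the left and IL-10- on the right of each panel, with a line joining the libraries of a replicate number and the mean and SD of the 4 libraries in black. In Hmgcs1, Sc5d and Fasn each line runs upward to IL-10-, with numbers 3 and 4 above 1 and 2 in both fractions. In Ebp, Abcg1 and Scd1 the groups do not overlap.

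Summed over the 18 sterol enzymes, the FPKM were 274, 325, 428 and 473 in the IL-10+ libraries of numbers 1 to 4, against 316, 392, 503 and 577 in the IL-10- libraries. The ratio within the numbers was 0.867, 0.829, 0.851 and 0.819. The libraries of numbers 3 and 4 lay above those of 1 and 2 in both fractions for 16 of the 18 enzymes and for 25 of the 35 members, against 21.4% of all tested genes. The summed FPKM of 8 S phase genes were 0.896, 0.900, 0.935 and 0.921 times the IL-10- value in numbers 1 to 4, and all 8 were higher in numbers 3 and 4 of both fractions. None of the 8 was called without the block, and 6 fell and 1 rose with it. A list of 8 mitosis genes summed to 1.25, 1.20, 1.21 and 1.18 times the IL-10- value, and 2 of them rose without the block and 6 with it. A list of 7 secretory pathway genes summed to 2.46, 2.35, 2.16 and 2.12 times, and all 7 rose. A list of 7 plasmablast genes summed to 4.36, 3.74, 3.11 and 3.13 times the IL-10- value, with a median log2 change of 2.03, and all 7 rose. Immunoglobulin gene segments took 13.2% to 16.8% of the summed FPKM in IL-10+ libraries and 3.73% to 4.73% in IL-10- libraries. The part of these genes in the sterol enzyme values was not tested.

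**Figure D3:**
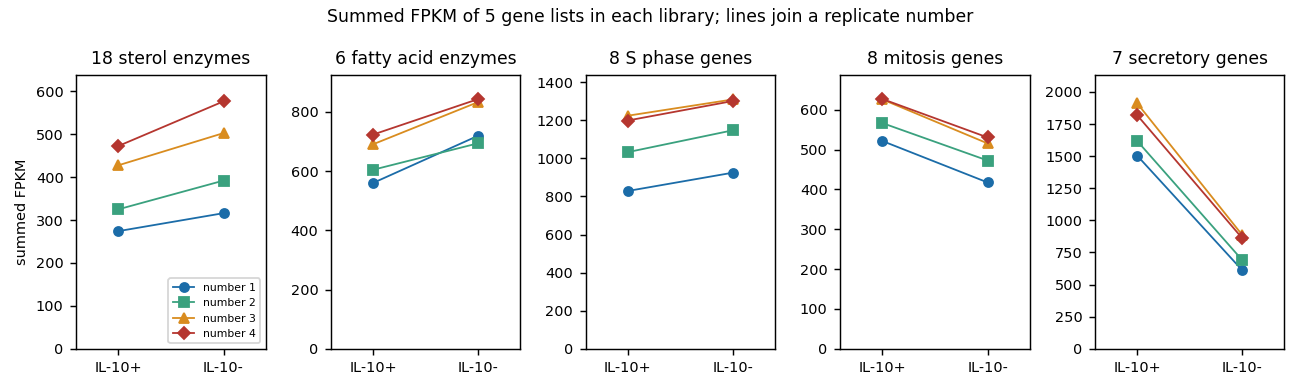
Summed FPKM of the sterol enzymes, fatty acid enzymes and 3 accompanying lists in each library, IL-10+ on the left and IL-10- on the right of each panel, with lines joining a replicate number. The sterol and S phase sums lie lower in the IL-10+ library of each number and higher in numbers 3 and 4 than in 1 and 2, while the mitosis and secretory sums lie higher in each IL-10+ library.

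Among the 6 genes of SREBP control and sterol sensing, none was called without the block. With it Insig1 rose and Srebf1 fell, and the other 4 were not called. Srebf2, the SREBP gene of the cholesterol branch, was the third most abundant member and stood at 166, 166, 181 and 172 FPKM among IL-10+ and 172, 153, 169 and 167 FPKM among IL-10- libraries. The groups overlapped, and the IL-10+ value was higher in 3 of 4 numbers (limma adjusted p = 0.627, and 0.288 with the block). Srebf1 averaged 32.0 ± 2.59 FPKM in the IL-10+ and 35.1 ± 2.60 FPKM in the IL-10- group (SD, n = 4 each), with adjusted p = 0.317 without and 0.0169 with the block (limma). Its blocked call ended without replicate number 1 or 3 (adjusted p = 0.0539 and 0.0685) and under both other scalings with the block (0.0517 and 0.0577).

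The escort Scap was at 17.6 ± 0.841 FPKM in the IL-10+ and 17.5 ± 1.47 FPKM in the IL-10- group and the oxysterol receptor Nr1h2 at 21.4 ± 1.66 FPKM in the IL-10+ and 22.8 ± 2.01 FPKM in the IL-10- group (SD, n = 4 each). Neither was called in either fit (limma adjusted p = 0.935 and 0.528, and 0.824 and 0.0694 with the block).

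Insig1 was the member of this group that differed most. It stood at 70.2, 73.1, 108 and 105 FPKM in the IL-10+ libraries of numbers 1 to 4 and at 50.1, 50.6, 77.2 and 83.5 FPKM in the IL-10- libraries. The groups overlapped across numbers, and each IL-10+ library was above the IL-10- library of its number, at 1.40, 1.45, 1.40 and 1.26 times. The log2 change was 0.45 (SE 0.218, limma adjusted p = 0.191, and 4.12e-04 with the block). Insig1 was also called within replicates 1 and 2 alone (adjusted p = 0.0306) and within 3 and 4 alone (0.0119). Its paralogue Insig2 was much less abundant, at 5.04 ± 0.286 FPKM in the IL-10+ and 4.73 ± 0.540 FPKM in the IL-10- group (SD, n = 4 each), and was not called (adjusted p = 0.551, and 0.223 with the block).

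Both Insig1 and Hmgcs1 are known SREBP targets, and their ratio in FPKM, chosen after the values were seen, separated the fractions. Insig1 over Hmgcs1 was 3.73, 2.96, 2.92 and 2.36 in IL-10+ and 2.10, 1.47, 1.44 and 1.31 in IL-10- libraries. The groups did not overlap, and within numbers 1 to 4 the ratio was 1.77, 2.02, 2.03 and 1.81 times as high in IL-10+ libraries.

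The promoters of Hmgcs1, Insig1 and Ebp are shown because these genes share a pathway and moved in opposite directions with the block. Ebp was taken as a called member, and the other pair was chosen after the values were seen. The sequences are RefSeq windows of GRCm38.p6, from 250 bases before to 50 after the gene's start, written 5′ to 3′ on the gene's strand. Capitals mark CCAAT, the box bound by NF-Y, a usual partner of SREBP, and TCACNCCAC, a core of the sterol regulatory element, each on either strand. The windows are chr13:119690101-119690400 on the plus strand, chr5:28071162-28071461 on the plus strand and chrX:8193463-8193762 on the minus strand.
Hmgcs1: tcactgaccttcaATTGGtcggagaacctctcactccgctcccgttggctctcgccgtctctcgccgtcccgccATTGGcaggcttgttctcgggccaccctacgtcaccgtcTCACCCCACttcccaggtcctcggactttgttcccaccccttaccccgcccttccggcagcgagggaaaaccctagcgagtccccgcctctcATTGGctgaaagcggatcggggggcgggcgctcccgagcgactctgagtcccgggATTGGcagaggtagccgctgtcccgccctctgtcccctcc
Insig1: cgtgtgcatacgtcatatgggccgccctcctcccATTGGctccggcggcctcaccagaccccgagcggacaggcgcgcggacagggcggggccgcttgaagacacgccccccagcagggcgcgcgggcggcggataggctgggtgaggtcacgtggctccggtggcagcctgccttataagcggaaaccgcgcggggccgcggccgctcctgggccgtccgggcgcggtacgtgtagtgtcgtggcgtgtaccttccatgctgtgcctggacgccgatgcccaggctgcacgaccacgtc
Ebp: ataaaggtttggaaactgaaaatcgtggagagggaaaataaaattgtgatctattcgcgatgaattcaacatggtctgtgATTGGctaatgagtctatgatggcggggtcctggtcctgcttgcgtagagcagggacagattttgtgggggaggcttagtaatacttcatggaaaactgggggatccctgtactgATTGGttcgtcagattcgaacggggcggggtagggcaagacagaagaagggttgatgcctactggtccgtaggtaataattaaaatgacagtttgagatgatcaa

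The Hmgcs1 window held 4 CCAAT boxes and 1 sterol regulatory core, centred 133 bases before the start. Ebp held 2 CCAAT boxes and Insig1 held 1, and neither window held those letters of the core. The Insig1 window held 1 E-box, CACGTG, which is not capitalised above, and the windows of Hmgcs1 and Ebp held none. Promoter windows were found for 27 of the 35 members, 35 windows in all, and none was found for Abcg1 or Scd1. CCAAT was in 22 of the 35 windows (62.9%), against 37.4% of all 32851 windows. GGGCGG, the letters of the Sp1 box, was in 26 (74.3%), against 35.7%. The E-box, which SREBP can also bind, was in 7 (20%), which belong to 6 members, against 7.15% of all windows. TCACNCCAC was in 1 of the 35, that of Hmgcs1, against 1.24%. The 4 motifs were searched on both strands, and matches of different motifs that overlap were each counted. A match describes the letters only.

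Among the 5 genes of sterol transport, 1 rose without the block and none fell, and with it 2 rose and 1 fell. Abcg1, which exports cholesterol to lipoproteins and is a known LXR target, lies on chromosome 17, 31057675 to 31117988 of GRCm38. It stood at 13.5, 12.0, 13.2 and 10.5 FPKM in the IL-10+ libraries of numbers 1 to 4, against 8.08, 6.01, 6.73 and 5.29 FPKM in the IL-10- libraries. The groups did not overlap, and the ratio within the numbers was 1.67, 2.00, 1.96 and 1.98. Abcg1 averaged 12.3 ± 1.36 FPKM in the IL-10+ and 6.53 ± 1.19 FPKM in the IL-10- group (SD, n = 4 each; log2 change 0.83, SE 0.123, limma adjusted p = 0.00187, and 1.32e-04 with the block). The adjusted p stayed between 0.000949 and 0.00856 when any 1 library was left out.

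The related exporter Abca1 did not follow. It stood at 2.07, 1.16, 0.842 and 0.662 FPKM among IL-10+ and 1.73, 1.08, 0.912 and 0.750 FPKM among IL-10- libraries, highest in number 1 of both fractions. It was higher in IL-10+ in numbers 1 and 2 and lower in 3 and 4 (limma adjusted p = 0.957, and 0.803 with the block). The log2 change of Abca1 was 0.024, and its interval was wide without the block (SE 0.211) and narrower with it (SE 0.0713). The difference between the exporters was not tested.

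Stard4, a sterol carrier within the cell and a known SREBP target, stood at 15.6, 19.2, 22.2 and 25.1 FPKM among IL-10+ and 20.6, 25.6, 28.7 and 34.9 FPKM among IL-10- libraries. Each IL-10+ library was below that of its number, at 0.759, 0.750, 0.772 and 0.719 times (limma adjusted p = 0.166, and 2.50e-04 with the block). Npc1 and Npc2 pass cholesterol out of lysosomes. Npc2 stood at 32.9, 30.8, 26.2 and 27.0 FPKM among IL-10+ and 26.8, 27.2, 22.9 and 21.9 FPKM among IL-10- libraries, higher in each IL-10+ library of the 4 numbers (adjusted p = 0.153, and 0.00227 with the block). Npc1 averaged 2.90 ± 0.307 FPKM in the IL-10+ and 2.58 ± 0.395 FPKM in the IL-10- group (SD, n = 4 each) and was not called in either fit (adjusted p = 0.429, and 0.0710 with the block). It was called as higher with the block under both other scalings (adjusted p = 0.0480 and 0.0473).

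Of the 6 fatty acid enzymes 1 fell without the block and none rose, and with it 4 fell and 1 rose. Scd1, which desaturates stearoyl-CoA to oleoyl-CoA, was the most abundant of the 35 members and lies on chromosome 19, 44394455 to 44407879 of GRCm38. It stood at 274, 268, 301 and 291 FPKM in the IL-10+ libraries of numbers 1 to 4, against 426, 373, 409 and 382 FPKM in the IL-10- libraries. The groups did not overlap, and the highest IL-10+ library was well below the lowest IL-10- library. Scd1 averaged 283 ± 15.5 FPKM in the IL-10+ and 398 ± 24.5 FPKM in the IL-10- group (SD, n = 4 each; log2 change -0.49, SE 0.0700, limma adjusted p = 0.00153, and 5.72e-04 with the block). The adjusted p stayed between 0.00324 and 0.00758 when any 1 library was left out.

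Scd2, a desaturase of the same family whose gene lies close by on the same chromosome, did not follow. It stood at 189, 227, 244 and 269.6 FPKM among IL-10+ and 173, 190.5, 233 and 256 FPKM among IL-10- libraries. The groups overlapped, and each IL-10+ library was slightly above that of its number, at 1.09, 1.19, 1.05 and 1.05 times (limma adjusted p = 0.601, and 0.0386 with the block). That blocked call ended when any one replicate number was left out (adjusted p = 0.0878, 0.0739, 0.0647 and 0.0671 without numbers 1 to 4). The ratio of Scd1 to Scd2 in FPKM, chosen after the values were seen, was 1.45, 1.18, 1.23 and 1.08 in IL-10+ and 2.46, 1.96, 1.75 and 1.49 in IL-10- libraries. The highest IL-10+ ratio lay below the lowest IL-10- ratio, and the difference between the paralogues was not tested. Reads from close paralogues can be assigned to either gene, and the sources used here do not say how such reads were counted.

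In every replicate number the IL-10+ library held less Acly, Fasn and Acaca. Acly makes cytosolic acetyl-CoA from citrate and so feeds both pathways. It stood at 62.8, 73.3, 84.7 and 90.4 FPKM among IL-10+ and 77.7, 86.0, 112 and 115 FPKM among IL-10- libraries, with a ratio of 0.809, 0.852, 0.753 and 0.784 within the numbers (limma adjusted p = 0.206, and 0.00100 with the block). Fasn, the fatty acid synthase, stood at 26.2, 26.5, 47.2 and 55.8 FPKM among IL-10+ and 32.2, 32.6, 63.3 and 71.9 FPKM among IL-10- libraries. Its libraries of numbers 3 and 4 were far above those of 1 and 2 in both fractions, and the ratio within the numbers was 0.813, 0.814, 0.746 and 0.776 (adjusted p = 0.544, and 5.95e-04 with the block).

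Acaca, the acetyl-CoA carboxylase that commits carbon to fatty acids, averaged 6.89 ± 1.71 FPKM in the IL-10+ and 8.83 ± 1.84 FPKM in the IL-10- group (SD, n = 4 each) and fell with the block (limma adjusted p = 8.27e-04, and 0.254 without). Elovl6, which lengthens palmitate, averaged 5.27 ± 1.82 FPKM in the IL-10+ and 4.87 ± 1.71 FPKM in the IL-10- group (SD, n = 4 each), was higher in IL-10+ in all 4 numbers by little, and was called in neither fit (adjusted p = 0.838, and 0.0701 with the block). Under both other scalings with the block it was called as higher (adjusted p = 0.0398 and 0.0390).

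Within replicates 1 and 2 alone Insig1 and Abcg1 were called as higher and Scd1 as lower. Within replicates 3 and 4 alone Ebp, Insig1, Npc2 and Abcg1 were called as higher and Acat2, Hmgcs1, Mvk, Mvd, Acly and Scd1 as lower (limma adjusted p between 0.0101 and 0.0480). Of the 11329 tested genes, 1106 were called within replicates 1 and 2 and 2647 within replicates 3 and 4. Each of these sets holds 2 libraries a group, and the difference between the sets was not tested. Within replicates 1 and 2 the calls of Etnk1, Acsl1, Pggt1b, Coq2 and Lipa, described next, also ended (adjusted p between 0.0899 and 0.302).

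Other lipid genes outside the 35 were described by lists, chosen like the members with earlier results of these data known. To set beside the list counts, 10.6% of all tested genes rose and 9.18% fell without the block. With the block 20.4% rose and 33.3% fell, and the median log2 change of all tested genes was -0.057. No list was tested against these shares. Of 16 other sterol and isoprenoid enzymes, all tested, 1 rose and 2 fell, with a median log2 change of -0.069. With the block 4 rose and 4 fell. Dhdds, a subunit of the enzyme that makes dolichol, the carrier lipid of N-glycosylation, stood at 30.5, 32.7, 34.9 and 34.2 FPKM among IL-10+ and 17.3, 17.9, 20.4 and 21.1 FPKM among IL-10- libraries. The groups did not overlap (1.72 times the IL-10- mean; limma adjusted p = 2.98e-04). The prenyltransferase subunit Pggt1b averaged 18.6 ± 1.99 FPKM in the IL-10+ and 24.2 ± 1.69 FPKM in the IL-10- group, and Coq2 of coenzyme Q synthesis 16.8 ± 0.986 FPKM in the IL-10+ and 20.1 ± 1.32 FPKM in the IL-10- group (SD, n = 4 each). Pggt1b fell (adjusted p = 0.0201), and its call ended without IL-10+ replicate 3 or 4 or IL-10- replicate 2 (up to 0.0635). Coq2 fell too (adjusted p = 0.0447), and its call ended in 7 of 8 fits that left out 1 library, all but IL-10- replicate 1 (up to 0.111). It also ended without a filter on low values (0.0592) and under both other scalings (0.115 and 0.0655).

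Of 27 other genes of sterol uptake, storage, transport and control, 25 were found and 20 tested. Among these 3 rose and none fell, their median log2 change was 0.015, and with the block 8 rose and 7 fell. Nceh1, which hydrolyses cholesteryl esters, stood at 5.24, 5.75, 5.27 and 5.22 FPKM among IL-10+ and 3.41, 3.10, 3.10 and 3.21 FPKM among IL-10- libraries. Every IL-10+ value lay above every IL-10- value (log2 change 0.60, SE 0.0596, limma adjusted p = 1.91e-04). Osbp, which exchanges lipids between endoplasmic reticulum and Golgi, averaged 31.7 ± 1.16 FPKM in the IL-10+ and 21.9 ± 0.960 FPKM in the IL-10- group (SD, n = 4 each; adjusted p = 4.08e-04). Lipa, the lysosomal lipase, was 1.14 times the IL-10- mean (adjusted p = 0.0455), and its call ended whichever library was left out (up to 0.123) and without a variance trend (0.0571).

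Of 29 other fatty acid genes 17 were tested, and 1 rose and 1 fell, with a median log2 change of -0.074. With the block 3 rose and 7 fell. The one that rose was Fads3, a member of the fatty acid desaturase family. It stood at 1.68, 1.55, 2.02 and 1.40 FPKM among IL-10+ and 0.251, 0.300, 0.630 and 0.572 FPKM among IL-10- libraries (limma adjusted p = 0.00123). Fads3 reached 1 FPKM only in the IL-10+ libraries and so passed the filter through them alone. Its lowest value stood on 27 reads, and its call is given as a description only. The one that fell was Acsl1, an acyl-CoA synthetase, at 1.74 ± 0.0646 FPKM in the IL-10+ and 2.42 ± 0.226 FPKM in the IL-10- group (SD, n = 4 each; adjusted p = 0.0161, and 0.0521 without a filter on low values).

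Of 29 genes of glycerophospholipid and triglyceride synthesis 24 were tested, and 3 rose and none fell. The median log2 change was 0.013. With the block 7 rose and 4 fell. Agpat4, an acyltransferase that makes phosphatidic acid, stood at 17.04, 19.3, 19.1 and 18.7 FPKM among IL-10+ and 9.81, 12.2, 12.0 and 11.9 FPKM among IL-10- libraries. All IL-10+ values exceeded all IL-10- values (1.61 times the IL-10- mean; limma adjusted p = 6.79e-04). Pcyt1a, the rate-limiting enzyme of phosphatidylcholine synthesis, averaged 9.17 ± 0.308 FPKM in the IL-10+ and 6.35 ± 0.297 FPKM in the IL-10- group (SD, n = 4 each; adjusted p = 5.71e-04). Etnk1, the ethanolamine kinase, averaged 31.6 ± 0.699 FPKM in the IL-10+ and 25.8 ± 0.939 FPKM in the IL-10- group (SD, n = 4 each; adjusted p = 0.00783). The 3 genes were higher in the IL-10+ library of all 4 numbers.

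**Figure D4:**
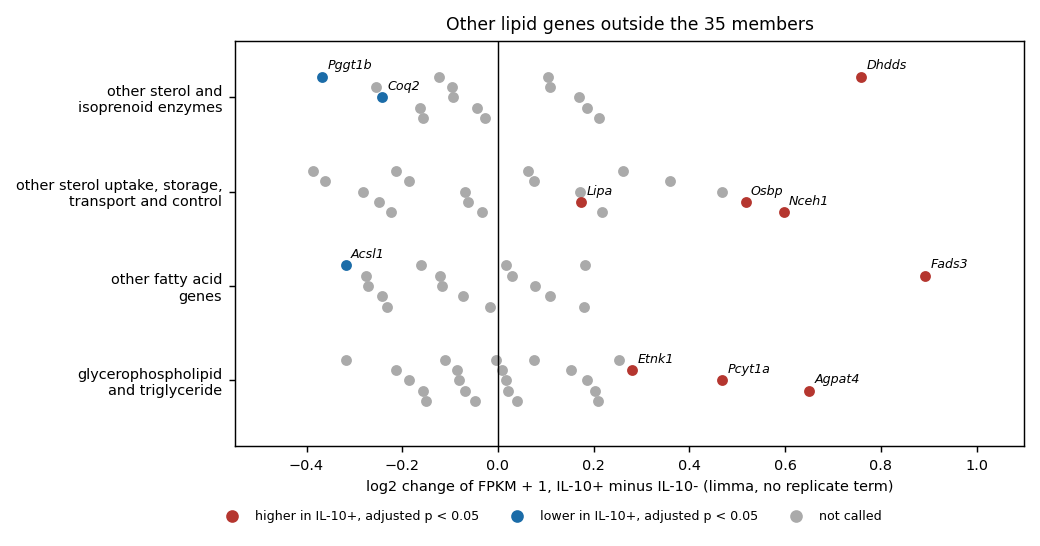
Log2 change of FPKM + 1, IL-10+ minus IL-10-, of the tested genes of the 4 other lipid lists in the limma fit without the replicate number, with each list on its own row. Called genes are coloured and named, and Fads3, Dhdds and Agpat4 lie farthest to the right, at 0.89, 0.76 and 0.65. Fads3 passed the filter through its IL-10+ libraries alone.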

How the data were processed

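The authors deposited 1 table of FPKM for 26589 genes in 8 libraries. HISAT2 2.1.0, HTSeq 0.6.0 and the mm10 build are named in the submitters' processing notes. Which annotation and strand setting were used, and how shared reads were treated, was not given in the sources used here. Columns were matched to libraries by the column name in each library's description, and groups and replicate numbers came from the titles. Gene names and positions came from GENCODE M21 (GRCm38, the same build), in which 26517 identifiers were found and 72 were not. Multiplied by exon length and a single library total, 93.5% to 93.6% of the values above 0 gave whole reads within 0.05, which gave the library totals. One read in 1 kb was worth 0.0334 to 0.0365 FPKM.

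FPKM are not counts, so groups were compared with limma 3.58.1 (R 4.3.3) on log2(FPKM + 1) with a variance trend, over the 11329 genes that reached 1 FPKM in 4 or more libraries. This scale understates changes of low genes. A replicate number pairs the libraries by a rule on the data, since each pair's deviations from its group means correlated by over 0.1 (0.712, 0.583, 0.621 and 0.700 in numbers 1 to 4). The labels do not state it. A ratio named as times the IL-10- mean is of mean FPKM.

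The members and lists were chosen with earlier results of these data known. Values in every library are given for called members and for the most abundant uncalled member of each role, and in the other lists up to 3 called genes with the largest change are named. The first of these in each list is given by library, a choice made after the values were seen. Hmgcs1, Acat2, Sc5d, Insig1, Abca1, Stard4, Acly and Fasn were added after their values were seen. Alternatives were other pseudocounts, filters and scalings, the replicate block, libraries left out, replicate subsets and no variance trend.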

Additional observations from a re-analysis of the deposited data

How the results depend on the processing

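The count of members called depended mostly on the replicate number. Without the block 2 were higher and 1 lower, with the replicate block 5 and 22, and 7 and 21 under either other scaling together with the block. Within replicates 3 and 4 alone they were 4 and 6, where 2647 of all tested genes were called. Without a filter on low values 1 was higher. Leaving out 1 library gave 1 to 2 higher and 1 to 2 lower. Leaving out both libraries of a number with the block, a setting chosen after seeing the data, gave 4 higher and 20 to 21 lower. Over all tested genes the calls were 6083, 5724 and 5666 under these 3 blocked fits, 1106 within replicates 1 and 2, 1621 to 2055 with 1 library left out, and 5211, 5041, 4941 and 4940 with the block and number 1, 2, 3 or 4 left out. The blocked fits called 8, 8 and 8 of the other sterol and isoprenoid enzymes (1 within replicates 1 and 2, 1 to 3 with 1 library left out, 8 to 9 with the block and a number left out), and 15, 14 and 14 of the sterol uptake, transport and control genes (5 within replicates 3 and 4, 2 to 3 with 1 library left out, 12, 13 or 14 with the block and a number left out). They called 10, 11 and 11 of the other fatty acid genes (1 without a filter, 0 at 5 FPKM, 1 within replicates 1 and 2, 2 with 1 library left out, 8, 9 or 10 with the block and a number left out) and 11, 12 and 12 of the glycerophospholipid genes (3 to 4 with 1 library left out, 9, 10 or 11 with the block and a number left out). Directions turned for uncalled genes only. Within replicates 3 and 4 alone Scap was at -0.020 and Abca1 at -0.064. With the block, Scap was at -0.028 without number 2 and Abca1 at -0.025 without number 1. With 1 library left out the log2 change spanned -0.045 to 0.039 in Scap, -0.15 to 0.15 in Abca1, -0.067 to 0.26 in Elovl6 and -0.33 to 0.074 in Fdps. Both other scalings moved the median of all genes by under 0.1 on the log2 scale. Abcg1 and Scd1 kept their direction and call in all 24 alternatives. No library of the 70 group-wise sets of 4 member values stood apart from the others by Dixon's criterion, where chance gives about 1 in 20. The criterion looks for 1 value apart from the rest. It can hardly flag a set in which numbers 3 and 4 lie together above 1 and 2. In 25 of the 35 members both fractions were split this way, so the lack of flags says little about them.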
